A study of Mus musculus with 12 samples.

Results

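Isg15, Usp18 and Ube2l6 carry 3 steps of ISG15 conjugation and removal, and they were read in the livers of mice that lack the glucocorticoid receptor (GR) in hepatic tissue. The 3 genes were matched by name in the array annotation, are 3 of 27669 gene names, and were read by 3 of 41174 probes, 1 probe each. They were chosen by their measured log2 differences between AAV-hGRB and AAV-GFP in earlier results of these data, so their values in that contrast, and in the contrast with PBS that uses the same AAV-hGRB arrays, are given as a description without a test. All 3 probes were well above background on 12 of 12 arrays, none was saturated, and all passed the filter on dim probes that left 26593 probes of 18305 genes.

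The series holds 12 liver samples in 3 groups of 4. Mice of the first group received an adeno-associated virus carrying human GR beta (AAV-hGRB), those of the second the same kind of vector with a GFP cargo (AAV-GFP), and those of the third PBS. All animals were male C57BL/6 mice, 3 months old, and all were GR liver knockouts, so the controls carry the same deletion and no wild-type group is among them. Total liver RNA was hybridised to single-colour Agilent arrays, 1 sample an array. The study's title poses the question of how human GR beta, which binds no glucocorticoid, acts on transcription when GR alpha is missing. The Cre driver, the promoter of the vectors, the dose and the time between injection and harvest are not stated in the labels. The labels number the samples without tying each to its own animal, so p-values measure only the spread between these samples, which may be technical.

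ISG15 is a small protein made of tandem ubiquitin-like folds that cells produce after type I interferon. An E1 enzyme, UBA7, activates it, the E2 enzyme UBE2L6 carries it, and an E3 ligase, HERC5 in humans and HERC6 in mice, joins it to newly made proteins. USP18 cuts ISG15 off its targets and, apart from that activity, binds the interferon receptor subunit IFNAR2 and dampens signalling. The genes of ISG15 and of these enzymes are known as interferon-induced genes, which in liver are switched on by viruses and by other sources of interferon.

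The promoter sequences of the modifier and of its E2 are shown because their transcripts behaved differently on these arrays. RefSeq entries on GRCm38.p6, each running from 250 bases before to 50 bases after the transcript start, were present for 6 of the 7 genes of the pathway. Usp18 was not among them. The Isg15 promoter (chr4:156200769-156201068, minus strand) holds 3 overlapping matches to the letters GAAANNGAAA, the core of the interferon-stimulated response element (ISRE), starting 78, 72 and 66 bases before the transcript start. The capitals mark the stretch that these matches cover.
Isg15 promoter: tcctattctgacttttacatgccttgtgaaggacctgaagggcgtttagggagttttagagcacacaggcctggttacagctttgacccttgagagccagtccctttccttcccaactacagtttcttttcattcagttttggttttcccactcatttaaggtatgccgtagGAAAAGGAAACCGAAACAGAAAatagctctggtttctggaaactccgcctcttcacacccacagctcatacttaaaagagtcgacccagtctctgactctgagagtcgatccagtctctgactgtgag
Ube2l6 promoter: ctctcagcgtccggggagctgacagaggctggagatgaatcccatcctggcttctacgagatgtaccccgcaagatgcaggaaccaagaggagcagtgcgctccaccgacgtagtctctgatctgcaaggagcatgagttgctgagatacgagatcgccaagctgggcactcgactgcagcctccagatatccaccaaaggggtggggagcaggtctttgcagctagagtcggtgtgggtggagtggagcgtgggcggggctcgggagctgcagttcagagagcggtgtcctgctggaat
The Ube2l6 promoter (chr2:84798578-84798877, plus strand) is in lower case throughout because neither strand holds those letters, nor TTCNNNGAA, a STAT site, nor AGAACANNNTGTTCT, a glucocorticoid response element. Of 32851 promoters of the same length, 3.44% hold the ISRE letters, 8.3% the STAT letters and 0.00913% the glucocorticoid letters on either strand. Of the 6 pathway promoters, 1 (Isg15) has an ISRE match and 0 has either of the other motifs. A match is a description of these letters, and a missing one says nothing of other windows.

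Isg15 was read by a single probe, on which the whole account of the modifier rests. The array design, on the mouse build mm7, places that probe on another chromosome than the one RefSeq gives for the gene, chromosome 4 (156199424 to 156200818, GRCm38.p6). Whether another locus holds the probe's bases was not tested. The Ube2l6 probe lies at chr2:84652949-84653008 and the Usp18 probe at chr6:121295796-121295855 in mm7, on the chromosomes where RefSeq has the genes.

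Levels are log2 intensity minus the 75th percentile of the array, so a level of 0 is the 75th percentile itself, and 1 unit is a doubling. Levels of different probes are not comparable with each other. The 75th percentile lay between 349 and 598 intensity units on 11 arrays and at 209 on AAV-GFP replicate 3. That array also had the lowest mean correlation with the others over the tested probes, 0.933, against 0.959 to 0.975 for the rest. The differences of the members, the pathway genes and the gene lists against AAV-GFP are given with and without it. Cell type marker results were computed with all arrays only. By limma, 0 of 26593 probes passed an adjusted p of 0.05 in AAV-hGRB against AAV-GFP (0%), while 892 (3.35%) had an unadjusted p under 0.05. Against PBS the AAV-hGRB arrays gave 0 calls (0%) and 1553 probes (5.84%) under the unadjusted threshold. AAV-GFP against PBS gave 0 calls (0%) and 448 such probes (1.68%). The median standard error of a log2 difference was 0.31, and the number of arrays limits the precision.

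Isg15, the modifier, had its 4 highest levels on the 4 AAV-hGRB arrays. It stood at 3.54, 5.42, 4.81 and 3.58 in AAV-hGRB replicates 1 to 4, at 1.70, 2.42, 2.77 and 2.26 in AAV-GFP, and at 1.57, 1.95, 2.09 and 2.52 in PBS. The lowest AAV-hGRB array lay 0.78 above the highest AAV-GFP array and 1.02 above the highest PBS array, and the AAV-GFP and PBS arrays overlapped. The RNA came from whole liver, so more cells of a type and more RNA per cell cannot be told apart, nor fewer and less. Before scaling, the probe's intensity ran over 4538 to 20570 in AAV-hGRB, 1424 to 2782 in AAV-GFP and 1483 to 3232 in PBS.

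The AAV-hGRB livers averaged an Isg15 level of 4.34 ± 0.93, the AAV-GFP livers 2.28 ± 0.45 and the PBS livers 2.03 ± 0.39 (SD, n = 4 each). AAV-hGRB exceeded AAV-GFP by 2.06 on the log2 scale (4.16-fold, SE 0.41) and PBS by 2.31 (4.95-fold, SE 0.41). Of the 26593 probes, 17 had a larger positive difference against AAV-GFP and 16 against PBS. The spread among the AAV-hGRB livers was itself wide, with 1.88 log2 units between replicates 1 and 2. Between the controls, which did not choose the genes but share the AAV-GFP arrays, AAV-GFP minus PBS was 0.25 (95% interval -0.65 to 1.15, limma adjusted p = 0.999), less than the spread within either group. In order of level, AAV-hGRB stood first, and the neighbours AAV-GFP and PBS did not differ beyond their spread.

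Usp18, the protease that removes ISG15, showed the same order of groups. Its levels were 1.85, 3.67, 3.50 and 2.52 in AAV-hGRB replicates 1 to 4, against 0.80, 1.03, 0.00 and 0.80 in AAV-GFP and 0.45, 0.73, 0.15 and 0.71 in PBS. No AAV-hGRB array overlapped a control, with gaps of 0.82 to the highest AAV-GFP array and 1.13 to the highest PBS array. The intensities ran over 1408 to 6758 in AAV-hGRB, 209.6 to 1064 in AAV-GFP and 386.6 to 919.5 in PBS.

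The mean Usp18 level of the AAV-hGRB livers was 2.89 ± 0.86, that of the AAV-GFP livers 0.66 ± 0.45 and that of the PBS livers 0.51 ± 0.27 (SD, n = 4 each). The difference was 2.23 against AAV-GFP (4.68-fold, SE 0.38) and 2.38 against PBS (5.19-fold, SE 0.38). Larger positive differences were found for 13 and 11 probes of the array. AAV-GFP minus PBS was 0.15 (95% interval -0.68 to 0.98, limma adjusted p = 0.999), so these neighbours in the order did not differ beyond their spread.

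Ube2l6, the E2 that hands ISG15 on, did not separate the groups. Its levels were 0.54, 1.13, 1.46 and 1.36 in AAV-hGRB, 0.74, 1.06, -0.48 and 1.03 in AAV-GFP, and 0.66, 0.46, 0.83 and 1.77 in PBS. The highest single value belonged to a PBS array and the lowest to AAV-GFP replicate 3, and the 3 groups overlapped throughout. The intensities were 564.4 to 1642 in AAV-hGRB, 150.2 to 1088 in AAV-GFP and 618.4 to 1927 in PBS.

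For Ube2l6 the mean level was 1.12 ± 0.41 for AAV-hGRB livers, 0.59 ± 0.73 for AAV-GFP livers and 0.93 ± 0.58 for PBS livers (SD, n = 4 each). AAV-hGRB minus AAV-GFP was 0.53 (1.45-fold, SE 0.39), and 1695 probes had a larger positive difference. Without AAV-GFP replicate 3 the same difference was 0.18. AAV-hGRB minus PBS was 0.19 (1.14-fold, SE 0.39), and AAV-GFP minus PBS was -0.34 (95% interval -1.18 to 0.50, limma adjusted p = 0.999). The order of means, AAV-hGRB, PBS and AAV-GFP, had no neighbours that differed beyond their spread.

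**Figure D1:**
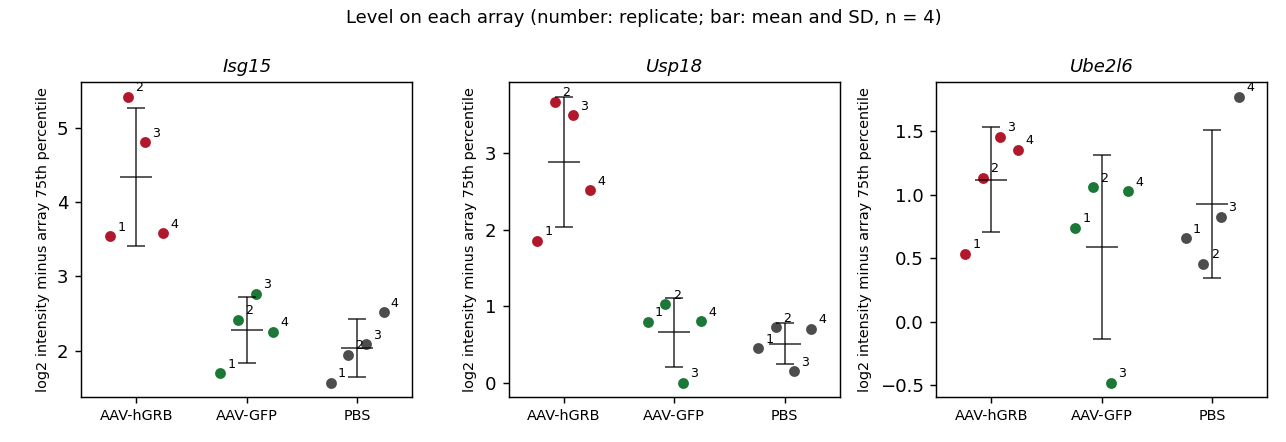
Level of Isg15, Usp18 and Ube2l6 on each of the 12 arrays (vertical axis, log2 level relative to the array's 75th percentile, each panel with a range of its own). Points are arrays with their replicate number, and bars give the mean and SD of 4 arrays. The AAV-hGRB points of Isg15 (3.54 to 5.42) and Usp18 (1.85 to 3.67) lie above every control point, and those of Ube2l6 (0.54 to 1.46) lie among them.

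Isg15 and Usp18 were non-overlapping and higher in AAV-hGRB against AAV-GFP, and Ube2l6 was not. Over all genes, 133 of 18305 (0.727%) were in that class, but the genes were chosen with this contrast known, so nothing is read from the count. Against PBS the same 2 genes were non-overlapping, beside 304 of 18305 genes (1.66%). Between AAV-GFP and PBS, 0 of the 3 genes were non-overlapping, beside 0.541% of genes higher and 0.361% lower.

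AAV-hGRB replicate 1 had the lowest level of its group for all 3 genes. Replicate 2 was the highest for Isg15 and Usp18, and replicate 3 for Ube2l6. AAV-GFP replicate 3 was the highest of the AAV-GFP arrays for Isg15 and the lowest for Usp18 and Ube2l6. Without it the differences against AAV-GFP were 2.22 for Isg15 and 2.01 for Usp18.

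The differences of the modifier and its protease were close in size, and that of the E2 was smaller. The difference of Usp18 exceeded that of Isg15 by 0.17 against AAV-GFP and by 0.07 against PBS, both below the SD of the array-wise difference of these probes (0.32 for AAV-hGRB, 0.80 for AAV-GFP and 0.41 for PBS). Without AAV-GFP replicate 3 the order against AAV-GFP turned, and Isg15 had the larger difference. With all arrays, the difference of Usp18 exceeded that of Ube2l6 by 1.69 against AAV-GFP and 2.18 against PBS. Array by array, Usp18 minus Ube2l6, a quantity whose zero has no meaning of its own, ran over 1.16 to 2.54 in AAV-hGRB, -0.23 to 0.48 in AAV-GFP and -1.07 to 0.27 in PBS. AAV-hGRB lay above both controls there, and the controls overlapped each other. Isg15 minus Ube2l6 ran over 2.23 to 4.29 in AAV-hGRB, 0.96 to 3.24 in AAV-GFP and 0.75 to 1.49 in PBS. Here AAV-hGRB overlapped AAV-GFP, through replicate 3 of that group, and lay above PBS.

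The 12 arrays were spread over 6 slides, and only slides 5 and 6 held an AAV-hGRB array together with both controls, 1 array of each group. Isg15 in AAV-hGRB minus AAV-GFP was 1.13 within slide 5 and 2.04 within slide 6, and against PBS it was 1.02 and 2.72. For Usp18 the values were 0.82 and 3.50 against AAV-GFP, and 1.15 and 3.35 against PBS. Both genes were thus higher in AAV-hGRB within each slide, by sizes that differed between the slides. Ube2l6 stood at -0.53 and 1.94 against AAV-GFP, and at -1.24 and 0.63 against PBS, so its sign turned between the slides. With the slide as a block, the differences against AAV-GFP were 1.67 for Isg15, 2.16 for Usp18 and 0.49 for Ube2l6, and against PBS 1.78, 2.25 and -0.09.

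**Figure D2:**
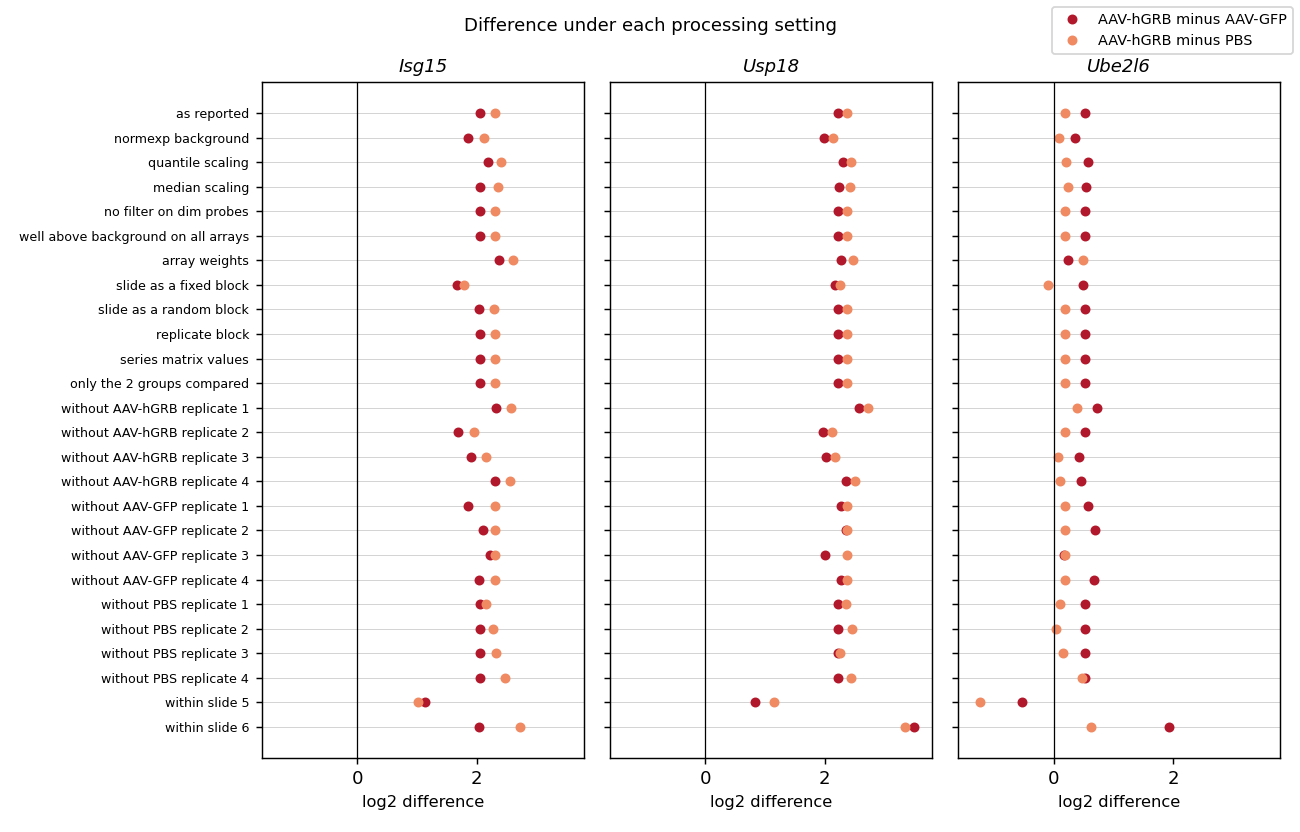
Log2 difference of Isg15, Usp18 and Ube2l6 (horizontal axis, one shared range) under each processing setting (rows), for AAV-hGRB minus AAV-GFP and AAV-hGRB minus PBS. All points of Isg15 (1.02 to 2.72) and Usp18 (0.82 to 3.50) lie right of 0, and those of Ube2l6 (-1.24 to 1.94) lie on both sides, with the extremes within single slides.

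The remaining pathway genes, the E1 and the E3 ligases, had smaller differences, and 0 of 4 passed the test in any comparison. Uba7, the E1, named Ube1l in the array design, had levels of 3.21, 3.78, 3.61 and 2.63 in AAV-hGRB, 2.29, 2.48, 3.36 and 2.29 in AAV-GFP, and 1.35, 2.45, 2.84 and 2.78 in PBS. Replicates 1 to 3 of AAV-hGRB lay above all controls apart from AAV-GFP replicate 3, and replicate 4 lay among them. The difference of Uba7 was 0.70 against AAV-GFP (95% interval -0.13 to 1.53, limma adjusted p = 0.998) and 0.95 against PBS (95% interval 0.13 to 1.78, limma adjusted p = 0.832).

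Herc6, the main ISG15 ligase of mice, was read by 3 probes that the array design calls Herc5, a symbol that RefSeq lists as a synonym of Herc6. The brightest had levels of -2.17, -1.53, -1.59 and -2.23 in AAV-hGRB, -2.69, -2.35, -1.45 and -2.51 in AAV-GFP, and -2.59, -2.57, -2.35 and -2.52 in PBS. All 4 AAV-hGRB arrays were above all PBS arrays, by a gap of 0.12, while AAV-GFP replicate 3 was the highest of all 12. Its difference was 0.37 against AAV-GFP (limma adjusted p = 0.998) and 0.63 against PBS (limma adjusted p = 0.842). A second Herc6 probe, well above background on 11 arrays, gave 1.16 against AAV-GFP and 1.12 against PBS (limma adjusted p = 0.998 and 0.827). On that probe AAV-hGRB replicate 1, at -3.29, lay among the controls, and replicates 2 to 4 (-1.19, -1.13 and -1.74) lay above every control (-3.58 to -2.53). The remaining Herc6 probe was above background on 0 arrays and was not tested.

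Trim25, a ligase for both ubiquitin and ISG15, had levels of 3.34, 4.49, 4.18 and 3.69 in AAV-hGRB, 3.78, 3.70, 2.77 and 3.60 in AAV-GFP, and 3.27, 3.48, 3.00 and 3.70 in PBS on its brighter probe. Replicates 2 and 3 of AAV-hGRB were the highest arrays, and replicates 1 and 4 lay among the controls. The difference was 0.46 against AAV-GFP and 0.56 against PBS (limma adjusted p = 0.998 and 0.882), and the dimmer probe gave 0.32 and 0.28. Arih1, which encodes another ligase reported to join ISG15 to targets, had 5 tested probes with differences of -0.24 to 0.11 against AAV-GFP and -0.04 to 0.39 against PBS.

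Of these 4 genes, 4 had a positive difference against AAV-GFP, with a median of 0.42, beside 37.6% of all genes tested and a median of -0.09. Without AAV-GFP replicate 3, Uba7 stood at 0.95, Herc6 at 0.64, Trim25 at 0.23 and Arih1 at -0.19, so 3 of 4 were positive with a median of 0.44. Uba7 and Herc6 were then non-overlapping and higher, 2 of 4 beside 2.97% of all genes, against 0 of 4 beside 0.727% with that array. That array was the highest AAV-GFP array for both genes, and leaving it out was chosen after seeing the data, so nothing is read from this count. Against PBS, 3 of 4 were positive with a median of 0.60, beside 39.2% and -0.08 over all genes. In AAV-GFP against PBS, 3 of 4 were positive with a median of 0.18, and 2 of 4 without that array.

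**Figure D3:**
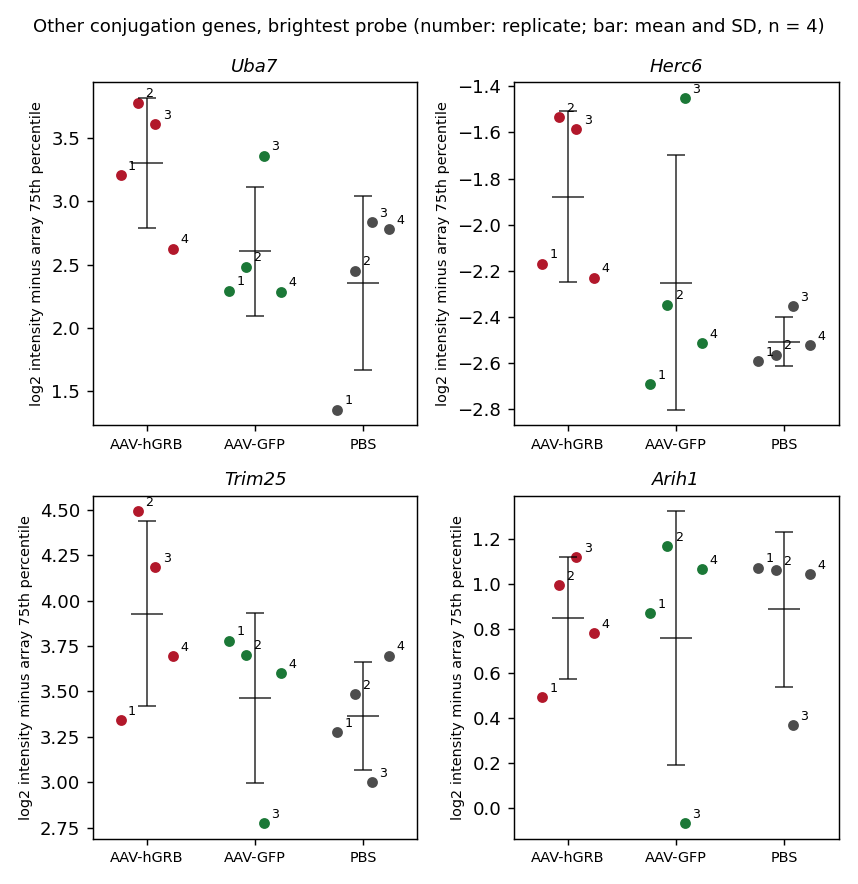
Level of Uba7, Herc6, Trim25 and Arih1 on each array (vertical axis, log2 level relative to the array's 75th percentile, each panel with a range of its own), brightest probe of each gene. Points are arrays with their replicate number and bars the mean and SD of 4 arrays. AAV-GFP replicate 3 is the highest AAV-GFP array for Uba7 (3.36) and Herc6 (-1.45) and the lowest for Trim25 (2.77) and Arih1 (-0.07).

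**Figure D4:**
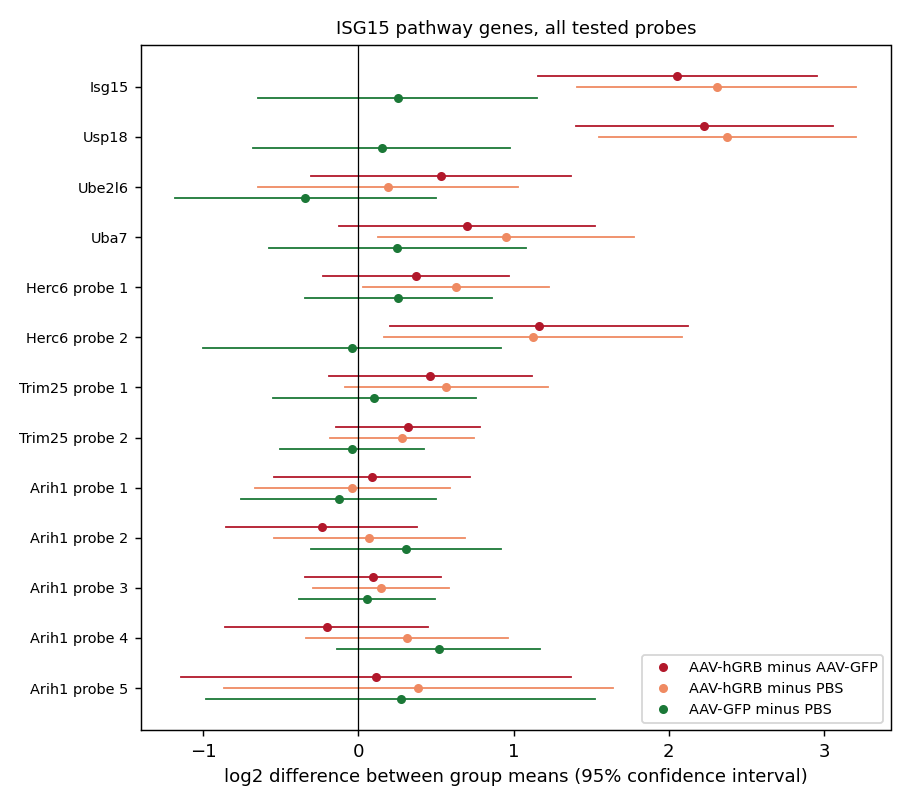
Log2 difference between group means (horizontal axis) with its 95% confidence interval for every tested probe of the pathway (rows), in 3 comparisons. For Isg15, Usp18 and Ube2l6 the AAV-hGRB intervals describe the spread and are no test, since those contrasts chose the genes or share their arrays. Isg15 and Usp18 lie above 2 in both AAV-hGRB comparisons, and the highest other point is the second Herc6 probe at 1.16.

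Around USP18, the factors that interferon signalling runs through were examined next, from lists chosen with earlier results of these data known. Of 6 tested transcription factors of the interferon response, 5 had a positive difference against AAV-GFP (median 0.54) and 0 passed the test. Irf7, the factor that amplifies interferon production, stood 2.49 above AAV-GFP (5.62-fold, SE 0.43, limma adjusted p = 0.31) and 2.41 above PBS (limma adjusted p = 0.204). Irf9, the DNA-binding part of ISGF3, stood 0.78 above AAV-GFP and 0.91 above PBS (limma adjusted p = 0.973 and 0.422). These 2 genes were non-overlapping and higher in both comparisons, 2 of 6 beside 0.727% of all genes against AAV-GFP and 1.66% against PBS. Irf1 stood at 0.07 and Irf3, a latent factor that virus sensors activate, at -0.40 against AAV-GFP. Without AAV-GFP replicate 3, an alternative chosen after seeing the data, they stood at 0.30 and -0.21, and 5 of 6 were positive (median 0.67). Stat2 was then non-overlapping and higher beside Irf7 and Irf9, 3 of 6 against 2.97% of all genes. Nothing is read from that count.

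The receptor complex that USP18 binds had smaller differences. Of its 5 tested genes, 4 were positive against AAV-GFP with a median of 0.07, and 0 were non-overlapping or passed the test. Stat2, which recruits USP18 to the receptor, stood at 0.60 (limma adjusted p = 0.998). Tyk2, a receptor kinase, stood at 0.27, and the receptor subunits Ifnar1 at 0.05 and Ifnar2 at -0.16. Without AAV-GFP replicate 3, an alternative chosen after seeing the data, 3 of 5 were positive, with a median of 0.08. Stat2 then stood at 1.03 and was non-overlapping and higher, 1 of 5 beside 2.97% of all genes, and Ifnar1 turned to -0.22.

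Among 10 genes whose proteins are known to be ISG15 targets or binders, 7 had a positive difference against AAV-GFP, with a median of 0.20, and 4 were non-overlapping and higher, beside 0.727% of all genes. They were Ifit1, which binds foreign RNA ends (2.50), Mx1, an antiviral GTPase (1.62), Ddx58, the RNA sensor RIG-I (1.39), and Eif2ak2, the kinase PKR (1.04). None of the 4 passed the test (limma adjusted p of 0.549, 0.998, 0.764 and 0.773). This list too was chosen with earlier results of these data known, so nothing is read from the count. Against PBS they stood at 2.47, 1.65, 1.70 and 0.93, and all but Mx1 were non-overlapping there. Without AAV-GFP replicate 3, 6 of the 10 were positive against AAV-GFP, with a median of 0.20, and the same 4 were non-overlapping and higher, beside 2.97% of all genes. The subunits of LFA-1, the surface receptor of secreted ISG15, stood at 0.43 for Itgal and 0.24 for Itgb2. Without that array they stood at 0.53 and 0.33, and Itgal was non-overlapping and higher, 1 of 2 beside the same 2.97%.

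Other proteases reported to act on ISG15 had differences of -0.92 to 0.27 against AAV-GFP. Of 5 tested, 1 was positive (Usp5, 0.27) and 4 were negative, with Usp2 lowest at -0.92 (SE 0.71, limma adjusted p = 0.998). Without AAV-GFP replicate 3, 0 of 5 were positive. Over the 38 tested proteases of the USP family other than Usp18, 15 were positive with a median of -0.05. The extremes were Usp22 (0.44) and Usp12 (0.31) above and Usp34 (-0.40) and Usp2 below. Usp40 (0.24) was non-overlapping and higher, beside 0.727% of all genes, and Usp53 (-0.36) non-overlapping and lower, beside 2.29%. Both were named after their values were seen, and 1 of 38 in each direction is near the share over all genes. Without AAV-GFP replicate 3, 11 of 38 were positive with a median of -0.15. Usp22 and Usp12 then stood at 0.07 each, and Usp42 was highest at 0.66, so the upper end of this order rests on that array.

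Over all genes the median against AAV-GFP was -0.09 with 37.6% positive, and -0.08 with 40.3% positive without AAV-GFP replicate 3. The families of Isg15 and Ube2l6 had medians of -0.12 and 0.02 with all arrays, and lower ones without that array. Of 21 genes for ubiquitin and other ubiquitin-like modifiers, 4 were positive against AAV-GFP, with a median of -0.12, and 1 without AAV-GFP replicate 3, with a median of -0.25. Ubd, the other modifier built of tandem ubiquitin-like folds, stood highest at 0.71 (limma adjusted p = 0.998), followed by Sumo3 at 0.37. Fau (-0.42) and Ubl5 (-0.41) were lowest, and Ubl5 was the only 1 of the 21 that was non-overlapping. Over all genes 420 of 18305 (2.29%) were non-overlapping and lower.

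Of 31 other E2 genes, 17 were positive against AAV-GFP with a median of 0.02, and 5 without AAV-GFP replicate 3 with a median of -0.24. Ube2k (0.51) and Ube2e1 (0.28) were highest, and Ube2d1 (-0.48) and Ube2s (-0.52) lowest. Ube2l3, the E2 closest to Ube2l6, gave 0.12 and 0.16 on its probes, and like Ube2l6 its lowest array was AAV-GFP replicate 3 (-0.28 and -0.57). Of 9 other E1 genes, 4 were positive with all arrays (Uba1 at 0.40 and Sae1 at 0.33 highest, Uba3 at -0.19 among the lowest) and 0 without that array. Of 4 other HERC ligases, 1 was positive (Herc2, 0.02) and 0 without that array, and Herc3, Herc4 and Herc1 stood at -0.07, -0.18 and -0.30. None of these genes passed the test.

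The genes whose pattern over the 12 arrays lay closest to each member were found among 14202 named genes by the root mean square difference in log2 units after centring each probe on its own mean. The members' own spread about their mean was 1.17 for Isg15, 1.20 for Usp18 and 0.55 for Ube2l6 on the same measure. Closest to Isg15 were Oasl2 (0.251), Fbxo39 (0.276), Oas1a (0.281), Trim30a (0.298) and Ifit1 (0.299). Oas1a makes the messenger that activates RNase L, and Oasl2 is an interferon-induced relative of it. Closest to Usp18 were Irf7 (0.326), Oasl1 (0.393), Cmpk2 (0.414), Fbxo39 (0.436) and Samd9l (0.467). Cmpk2 is a mitochondrial nucleotide kinase, and Fbxo39, an F-box protein, was the 1 gene named for both members.

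Each member stood among the nearer patterns of the other, with Isg15 in place 8 for Usp18 and Usp18 in place 19 for Isg15, at 0.483. Ube2l6 was in place 374 for Usp18 and place 1678 for Isg15. Its own nearest patterns were Zfp455 (0.209), F8, the clotting factor VIII gene (0.213), Naip2, an inflammasome sensor (0.232), Nudt16 (0.233) and Tor1aip2 (0.234). All 5, like Ube2l6, had AAV-GFP replicate 3 as their lowest array. Without that array the Ube2l6 list kept 1 of its 5 genes (Naip2, 0.173), the Isg15 list 4 of 5 and the Usp18 list 3 of 5.

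Over the 8 control arrays alone the nearest genes were others, apart from F8, which was named for Ube2l6 both times. For Isg15 they were Ndufa8 (0.109), Fancg (0.110) and Tmem14a (0.118), for Usp18 Abcd3 (0.0908), Uba2 (0.0911) and Add3 (0.0937), and for Ube2l6 F8 (0.129), Yif1a (0.139) and Nsmce1 (0.143). In the controls the spread about the mean was 0.385 for Isg15, 0.330 for Usp18 and 0.595 for Ube2l6. All arrays share a scaling and some share a slide, so such likeness is a description.

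**Figure D5:**
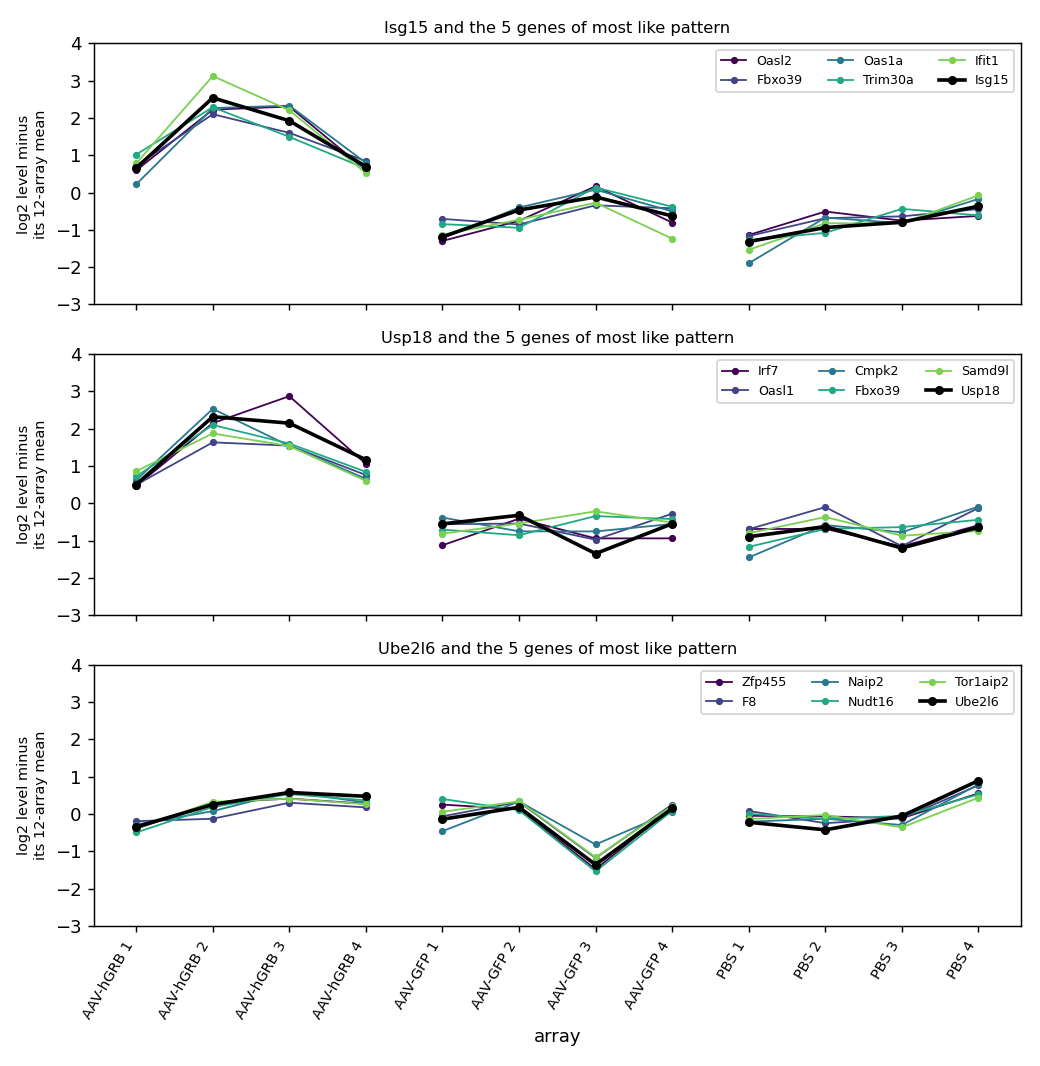
Log2 level minus its 12-array mean (vertical axis) on each array (horizontal axis) for each member (black) and the 5 genes of most like pattern. Lines join arrays of a group for the eye only, since replicates have no order. The Isg15 and Usp18 panels stand above 0 on the AAV-hGRB arrays and below or near 0 on most controls, and the Ube2l6 panel is lowest at AAV-GFP replicate 3.

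Of the 9 genes nearest to Isg15 and Usp18, 3 have a promoter entry with the ISRE letters, beside 3.44% of all promoters. The 9 genes were picked from these data by their likeness to the members, so nothing is read from the count. Oasl2 and Irf7, the closest to Isg15 and Usp18, have no match, nor have Fbxo39, Oasl1, Cmpk2 and Samd9l. The matches start 20 and 14 bases before the start of Oas1a and 104 and 85 bases before that of Ifit1, the latter on the opposite strand. Trim30a has a match on the opposite strand in each of its promoter entries. Isg15 itself has the 3 ISRE matches printed above. Oas1a also holds the STAT letters, 98 bases before its start, which 8.3% of all promoters hold.

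Markers of the liver's cell types were summed on the linear scale of each array. Hepatocyte markers had summed levels of 4232 to 5665 in AAV-hGRB, 4726 to 7320 in AAV-GFP and 4235 to 6222 in PBS over the 8 of 10 markers on the array, and Alb among them was saturated on 9 of 12 arrays. All 12 Kupffer cell and macrophage markers had a positive difference against AAV-GFP and against PBS, beside 37.6% and 39.2% of all genes. In AAV-GFP against PBS 11 of the 12 were positive, beside 52.1%, and 0 passed the test in any comparison. Their summed level was 122.8 to 239.9 in AAV-hGRB, 100.2 to 196 in AAV-GFP and 50.05 to 173.6 in PBS, with overlap. AAV-hGRB replicate 1 had the lowest Kupffer cell sum of its group, as it had the lowest Isg15, Usp18 and Ube2l6 levels. AAV-hGRB replicate 4 was next lowest in the sum, in Isg15 and in Usp18. In PBS the sums of replicates 1 to 4 (50.05, 117.6, 143.3 and 173.6) rose in the order of Isg15 (1.57, 1.95, 2.09 and 2.52). The Usp18 levels of PBS (0.45, 0.73, 0.15 and 0.71) did not follow that order. The highest AAV-hGRB sum was in replicate 3, while Isg15 and Usp18 were highest in replicate 2. In AAV-GFP, replicate 1 was lowest in the sum (100.2) and in Isg15 (1.70). The sum of that group was highest in replicate 4 (196) and Isg15 in replicate 3 (2.77). The part of these cells, and of the types that follow, in the Isg15 and Usp18 levels was not tested.

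Of 11 tested T and NK cell markers, 8 were positive against AAV-GFP, with summed levels of 2.145 to 3.967 in AAV-hGRB, 1.811 to 2.853 in AAV-GFP and 1.804 to 2.887 in PBS. Plasmacytoid dendritic cells are a strong source of type I interferon. Of their 5 tested markers 1 was positive, their sums overlapped (2.998 to 3.472 in AAV-hGRB, 2.82 to 3.709 in AAV-GFP and 3.014 to 3.684 in PBS), and their defining marker Siglech was below background on all 12 arrays. Neutrophil marker sums were 4.305 to 9.279 in AAV-hGRB, with overlap of both controls, 1.811 to 6.005 in AAV-GFP and 6.539 to 9 in PBS. The overlap with AAV-GFP rested on AAV-GFP replicate 3 (6.005), since the other AAV-GFP sums were 1.811, 2.968 and 3.411. The overlap with PBS rested on AAV-hGRB replicate 3 (9.279), since the other AAV-hGRB sums were 4.727, 4.305 and 4.997. AAV-GFP and PBS did not overlap there, and 2 of 4 tested neutrophil markers were positive in AAV-hGRB against AAV-GFP. The other sums overlapped between all groups. B cell markers had sums of 1.225 to 2.172 in AAV-hGRB, 0.8415 to 1.905 in AAV-GFP and 0.8673 to 2.329 in PBS, with Blk below background on all arrays and 3 of 5 tested markers positive against AAV-GFP. Endothelial markers had sums of 30.34 to 37.52 in AAV-hGRB, 26.67 to 43.74 in AAV-GFP and 29.49 to 36.07 in PBS, and 4 of 8 were positive. Stellate cell markers had sums of 14.49 to 19.55 in AAV-hGRB, 12.77 to 17.72 in AAV-GFP and 13.43 to 19.49 in PBS, and 5 of 8 were positive. Of 8 hepatocyte markers, 1 was positive. None of the marker genes passed the test.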

How the data were processed

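Total RNA of 12 liver samples was read on 12 single-colour Agilent arrays (43379 non-control and 1639 control spots). The deposited scanner output gives linear intensity for every spot. Per the file headers, Feature Extraction 9.5.3.1 subtracted the background (9.5 per the submitters' processing notes). The authors' series matrix, whose scale and centring are not stated, equalled the deposited processed intensity at 520548 values (tolerance 1e-06), so it is linear and uncentred, with column medians over non-control probes of 29.56 to 69.73.

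Processed intensity was put on the log2 scale, control spots were left out, as were outlier spots where another spot of the probe remained, repeated spots of 245 probes were averaged and the array's 75th percentile was subtracted. A probe was tested if well above background on at least 4 of 12 arrays. Names came from RefSeq accessions (22951 and 124 probes), RefSeq synonyms (3077) or the array design (15022). The RefSeq tables are on GRCm38.p6 and the probe coordinates on mm7. A gene stands on its brightest tested probe, and the other tested probes of pathway genes are given too.

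The groups were compared with limma 3.58.1 (R 4.3.3, statmod 1.5.0 and the package data.table at version 1.17.8) in 1 model of the 12 arrays, which leaves 9 residual degrees of freedom. Its p-values are two-sided and were adjusted by Benjamini and Hochberg's method over 26593 probes, with 0.05 as the threshold, and the fit was tested on simulated data. Sums of markers are of linear values. The members and all lists were chosen with earlier results of these data known. Named are the 3 members, all pathway genes, Ube2l3, the 2 highest and 2 lowest genes of each further list against AAV-GFP, and the genes of most like pattern (5 over 12 arrays and 3 over the controls). Ddx58, Eif2ak2, Usp40, Usp42 and Usp53 fall outside this rule and were chosen after their values were seen, as members of a small count or as a highest value. A few genes under the rule, and 1 probe sequence, are not reported here. Alternatives were normexp background (offset 50), quantile and median scaling, other filters, array weights, slide and replicate blocks, the compared groups alone, each array left out, and values within slides. The lists and like patterns were also computed without AAV-GFP replicate 3, an alternative chosen after seeing the data.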

Additional observations from a re-analysis of the deposited data

Results flagged for a closer look

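Arih1, the ligase gene, had a single low array among the PBS livers on its brightest probe. PBS replicate 3 stood at 0.37, against 1.07, 1.06 and 1.04 in the other PBS livers, and its gap to the nearest, divided by the range of the group, was 0.956, above Dixon's 95% critical value for 4 samples. It was the only 1 of 21 groups (7 pathway genes in 3 groups) with such an array, and chance flags about 1 in 20 groups. On the same slide, AAV-GFP replicate 3 was also the lowest of its group on this probe, at -0.07, and AAV-hGRB replicate 3 was the highest of its group, at 1.12. Other Arih1 probes well above background on all 12 arrays differed. On the second brightest, PBS replicate 3 (-0.21) was the highest PBS array and AAV-GFP replicate 3 (0.55) the highest AAV-GFP array. On a dimmer one AAV-GFP replicate 3 was again the highest of its group (-1.27), and on another the lowest (-1.52).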

How the results depend on the processing

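Over all settings, 216 recomputed differences of the 3 members moved by less than the residual SD and 12 by more, and in AAV-hGRB against either control Isg15 and Usp18 kept a positive sign in 25 of 25 settings each. Those that moved within slide 5 were Isg15 (1.13 against AAV-GFP, 1.02 against PBS), Usp18 (0.82 and 1.15) and Ube2l6 (-0.53 and -1.24). Within slide 6 they were Usp18 (3.50 and 3.35) and Ube2l6 against AAV-GFP (1.94), each resting on 1 array a group. Ube2l6 in AAV-GFP against PBS, -0.34 as reported, was 0.25 with array weights, 0.28 within slide 1 and -1.31 within slide 6. The cause was not tested. With each array left out in turn, Isg15 against AAV-GFP ran over 1.69 to 2.32, Usp18 over 1.97 to 2.57 and Ube2l6 over 0.18 to 0.73, and the count of probes called stayed at 0 in every comparison. By array weights, 67 probes were called in AAV-hGRB against PBS (3964 under an unadjusted p of 0.05), and 0 in the other comparisons. Normexp moved the median difference of all probes by 0.10 against AAV-GFP and 0.12 against PBS, and gave 1.85 and 2.12 for Isg15 and 1.98 and 2.14 for Usp18. Same-numbered samples correlated from -0.434 to 0.594 in their deviations from the group means, so no steady shared deviation was seen. The labels do not say whether the numbers pair the samples, and these correlations cannot decide it. Replicates 3 of the 3 groups also share slide 6 and hold both extremes. Their values were 0.594 for AAV-GFP with PBS, -0.434 for AAV-hGRB with AAV-GFP and -0.258 for AAV-hGRB with PBS. The replicate block left the differences of 2.06, 2.23 and 0.53 for Isg15, Usp18 and Ube2l6 as they were and called 0 probes. Dim probes, such as those of Herc6 and of lymphoid markers, limit what can be seen of those genes.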

Other observations

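The median difference of the E2 list against AAV-GFP changed sign with 1 array, AAV-GFP replicate 3 (0.02 with it, -0.24 without). That of the E1 list was negative either way (-0.11 and -0.24), and the signs of Isg15 and Usp18 did not turn. Against AAV-GFP, 0 of 9 other E1 genes, 5 of 31 other E2 genes and 1 of 21 other modifier genes were positive without that array, beside 40.3% of all genes tested. With it the counts were 4, 17 and 4, beside 37.6%, so the modifiers were mostly negative either way. The other USP proteases had 11 of 38 positive without the array and 15 with it, and the other HERC ligases 0 and 1 of 4. For AAV-GFP against PBS the counts without the array were 9 of 9, 24 of 31 and 16 of 21, beside 49.1% of all genes, and with it 4, 13 and 9, beside 52.1%. Without it, 4 of the 31 E2 genes and 3 of the 21 modifier genes were non-overlapping and lower in AAV-hGRB, beside 7.06% of all genes. Whether the dimness of that array moves these genes was not tested.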
